A study of Macaca mulatta with 18 samples.

Results

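GZ-only CTCF peaks are sites on the 20 autosomes of rhesus macaque where CTCF ChIP-seq of GZ gave a peak and none of the CP peaks overlapped it by 1 bp. There were 10327 of them among 29938 autosomal GZ peaks, or 34.5% (95% Wilson interval 34.0% to 35.0%). The members were chosen by the deposited CTCF peak calls of both tissues alone. The other 19611 GZ peaks overlapped a CP peak and are called shared here. By the mirror rule, 1805 of 21476 autosomal CP peaks (8.40%, 8.04% to 8.78%) were CP-only. Both tissues, which the labels name GZ and CP without spelling the names out, came from wild-type fetal brain at embryonic day 84. CTCF ChIP-seq and DNase-seq had 1 library per tissue, both numbered 1, and Hi-C had 3 libraries per tissue summarised as 1 list of loops and 1 list of domain boundaries. The titles of the CTCF and DNase libraries of both tissues carry the same label, which is also on 1 Hi-C library of each tissue. The labels do not say whether it stands for an animal, or how many animals these libraries came from.

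CTCF is a zinc finger protein that binds a long DNA motif and stops the cohesin ring as it extrudes chromatin loops. Bound CTCF therefore often marks loop anchors, where distant regions meet, and boundaries between topological domains. Most CTCF sites are occupied in many cell types, while a smaller part is bound in a tissue-dependent way. Occupied sites usually lie in open chromatin, the DNA that the enzyme DNase I can cut.

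The absence of a CP peak is the absence of a call, not of binding, and the tissues could not be compared by a test since each had 1 CTCF library. CTCF enrichment was lower in CP. At the shared peaks the fold enrichment, the authors' MACS2 value over background, had a median of 17.5 in GZ, against 7.07 for the CP peaks that overlapped them. The GZ lists were also longer for DNase peaks (81000 in GZ, 69872 in CP), loops (14632 and 9138) and boundaries (2704 and 2486), all on autosomes. With the GZ CTCF list shortened to the length of the CP list, 4349 of 21476 peaks were GZ-only, in place of 10327 of 29938. CP-only peaks were not counted again against the shortened list. What part these gaps play in the GZ-only calls was not tested. Read depth is unknown for the CTCF and DNase data. Wilson intervals cover counting error within these lists only, and neighbouring peaks are not independent.

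The rule used the CTCF calls, so the strength of the members is given as a description without a test. GZ-only peaks were weaker and narrower than shared ones in the same library. Their fold enrichment had a median of 8.60 (quartiles 6.48 and 12.4), against 17.5 (11.6 and 24.2) for shared peaks. The median −log10 q was 16.4 for GZ-only and 68.3 for shared peaks, and the median width was 277 bp and 388 bp. The strongest members were nevertheless far above the calling limit, with a highest fold of 68.3.

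All autosomal GZ peaks were divided into quintiles of fold enrichment at 7.61, 11.3, 16.5 and 23.1. GZ-only peaks made up 65.3% of the lowest quintile, 55.7% of the next, then 30.2%, 14.4% and, in the highest quintile, 6.91%. The 5 groups held 3910, 3330, 1808, 865 and 414 members, from the lowest quintile to the highest. The 2 lowest quintiles thus held 70.1% of the members. At the same fold, members still had a lower −log10 q than shared peaks, with medians of 9.81 and 13.3 in the lowest quintile and 74.4 and 131 in the highest.

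**Figure D1:**
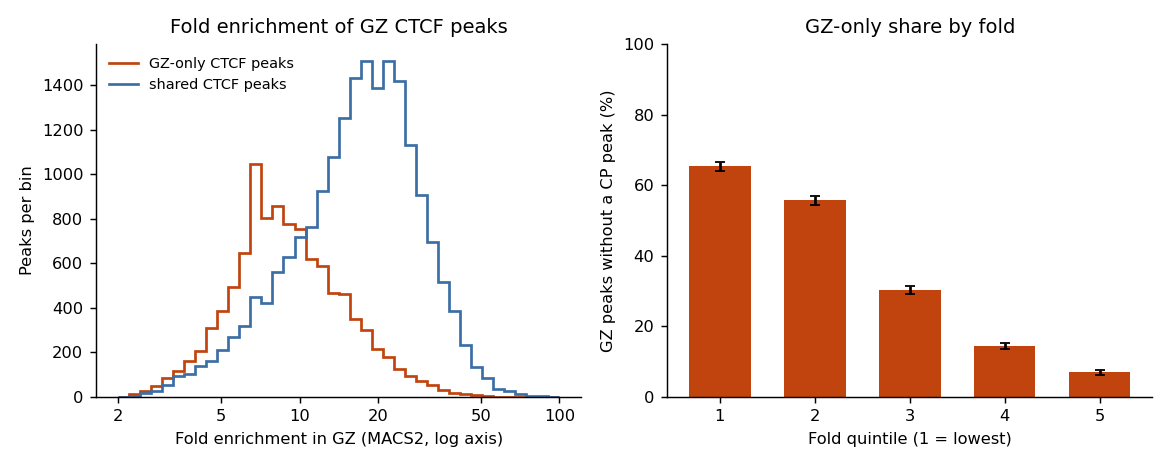
Left: number of GZ-only and shared GZ CTCF peaks by fold enrichment in GZ (log axis, bins of equal ratio). Right: percent of GZ peaks without a CP peak in each quintile of fold, with 95% Wilson intervals, falling to 6.91% in the highest quintile, against 65.3% in the lowest.

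Few peaks sat at the edge of the rule. A CP peak lay within 100 bp of 10 members, and 18 shared peaks were overlapped by CP peaks by 100 bp or less. The members closest to a CP peak were chr1:110399200-110399533, chr11:121931074-121931467 and chr2:101489562-101489764 (rheMac8), at 2, 6 and 29 bp between the nearest bases. Their folds were 3.81, 7.34 and 2.31. The shared peaks with the least overlap were chr1:154232469-154232696, chr8:142509631-142509831 and chr19:49502477-49502685, covered over 6, 40 and 42 bp, with folds of 4.28, 2.40 and 3.38. Peaks on both sides of the edge thus belonged to the lowest quintile of fold, and none of these 6 overlapped a DNase peak of either tissue.

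Open chromatin was not used by the rule. GZ-only peaks overlapped DNase peaks less often than shared peaks in both tissues, and more often in the GZ list than in the CP list. A GZ DNase peak of 146 bp overlapped 4565 members by at least 1 bp, or 44.2% (43.2% to 45.2%), against 81.5% of shared peaks and 68.6% of all autosomal GZ peaks. For the CP DNase list the shares were 30.4% (29.6% to 31.3%) of members, 77.9% of shared peaks and 61.5% of all. DNase peaks covered 0.442% of the autosomal bases in GZ and 0.381% in CP. CP-only CTCF peaks leaned to the other list, with 53.2% overlapping a GZ and 61.7% a CP DNase peak.

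Open chromatin in GZ became more frequent with fold. From the lowest to the highest quintile, 37.2%, 38.9%, 50.6%, 67.6% and 76.1% of members overlapped a GZ DNase peak. The difference from shared peaks of the same quintile was -27.6 percentage points (95% Newcombe interval -30.1 to -25.0) in the lowest quintile and -15.9 points (-20.3 to -12.0) in the highest. Of shared peaks, 64.8% overlapped a GZ DNase peak in the lowest quintile and 92.0% in the highest. By this overlap the gap in points was smaller among strong peaks, but it depended on the overlap rule, as the summit shares show. A gap in points also depends on how near the shares lie to their upper limit. The shares without a DNase peak were not compared as ratios.

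The CP list gave another course. Here 33.1%, 24.5%, 30.2%, 36.2% and 42.5% of members overlapped a DNase peak from the lowest to the highest quintile. The difference from shared peaks was -35.2 points (-37.6 to -32.7) in the lowest quintile and -45.5 points (-50.3 to -40.6) in the highest. By this overlap the gap in points to shared peaks was wider at high fold in CP and narrower in GZ. The rise among members alone depended on the bins, since it was 9.42 points from the lowest to the highest quintile but -4.30 points between the outer quartile groups of the members' own fold.

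Members were narrower than shared peaks and so offered less length for an overlap. When the DNase peak had to cover the single base of the CTCF summit, 34.4% of members and 71.0% of shared peaks were open in GZ, and 21.4% and 66.6% in CP. In the lowest quintile 21.5% of members then counted as open in GZ and 18.4% in CP. In the highest quintile the summit shares were 73.4% of members in GZ and 40.8% in CP. The difference from shared peaks at the summit in GZ was -16.6 points (-19.0 to -14.1) in the lowest quintile, -24.4 points (-27.1 to -21.7) in the middle one and -13.8 points (-18.4 to -9.71) in the highest. The intervals of the outer quintiles overlapped, which does not show that their gaps were equal. The gap in GZ was widest in the middle quintile, so it did not narrow steadily with fold under the summit rule. In CP it was -21.8 points (-24.2 to -19.3) in the lowest and -41.3 points (-46.0 to -36.4) in the highest quintile, again wider at high fold. The dip of the CP curve at the second quintile was not present at the summit, where the lowest 2 shares were 18.4% and 18.3%.

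Among members open in 1 of the 2 lists, the list was mostly that of GZ. Members fell into 2578 open in both lists (25.0%), 1987 open in GZ alone (19.2%), 566 open in CP alone (5.48%) and 5196 open in neither (50.3%). Of shared peaks 72.7% were open in both and 13.3% in neither. Of the 2553 members open in a single list, 77.8% (76.2% to 79.4%) were open in GZ, against 62.7% (60.9% to 64.5%) of shared peaks. For CP-only peaks that share was 28.7% (24.2% to 33.6%). Over all autosomal DNase peaks that overlapped no DNase peak of the other tissue, 58.6% were in the GZ list.

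That share rose with fold among the members, from 61.2% (57.6% to 64.7%) in the lowest quintile through 79.8%, 83.0% and 93.0% to 93.7% (88.8% to 96.5%) in the highest. In the highest quintile 149 members were open in GZ alone and 10 in CP alone. Shared peaks went from 39.0% to 72.4% over the same quintiles. The lowest quintile of members stood near the 58.6% of all DNase peaks, a count of DNase peaks and not of CTCF peaks. It stood above the 39.0% (34.0% to 44.4%) of shared peaks in that quintile. With the GZ DNase list shortened to the length of the CP list, the shares of members ran from 52.8% in the lowest quintile to 91.3% in the highest. Those of shared peaks then ran from 30.9% to 65.4%. The 58.6% of all DNase peaks was not computed again for the shortened list.

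**Figure D2:**
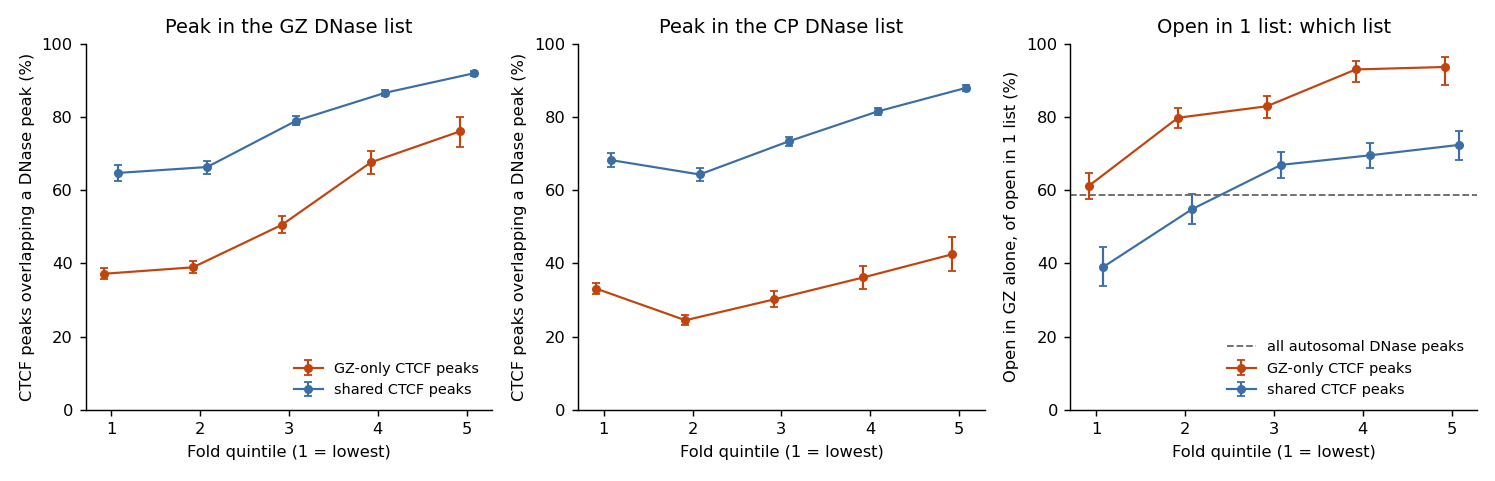
Percent of GZ-only and shared CTCF peaks that overlapped a GZ DNase peak (left) or a CP DNase peak (middle) in each quintile of fold, and, of the peaks open in a single list, the percent open in GZ (right; dashed line 58.6%, all autosomal DNase peaks open in a single list). Bars are 95% Wilson intervals; members reach 76.1% in GZ and 42.5% in CP in the highest quintile.

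The DNase peaks under members were of middle rank. Ranked by HOMER score within the GZ DNase list, the peaks at members had a median percentile of 47.4, against 69.4 at shared peaks. Members of the lowest fold quintile were an exception to a simple order, since their DNase peaks had a median percentile of 62.7, against 37.5 in the next quintile and 56.1 in the highest. In that lowest quintile the centre of the DNase peak lay a median of 57.5 bp from the CTCF summit, against 19 bp in the highest. Shared peaks had the same pattern, with 58 bp in the lowest quintile and 17 bp in the highest. The distance to the summit was thus longest in the lowest quintile, while the rank had no single direction with fold, and the lowest median percentile was in the second quintile for members (37.5) and for shared peaks (57.3).

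Loop anchors were the next measure outside the rule. A loop is a pair of 10 kb bins listed by the authors with its observed and expected Hi-C contacts, and it is called shared when both anchors lay within 10 kb of a loop of the other tissue. Members lay in loop anchors less often than shared peaks of the same fold. Of the members 1712 (16.6%, 15.9% to 17.3%) lay in an anchor of a GZ-only loop, against 32.2% of shared peaks and 26.8% of all autosomal GZ peaks. Anchors of shared loops held 1430 members (13.8%, 13.2% to 14.5%), against 35.3% of shared peaks and 27.9% of all. For CP-only loops, the shares were 2.93%, 6.69% and 5.39%. These anchors covered 4.14%, 3.94% and 1.09% of the autosomal bases for GZ-only, shared and CP-only loops.

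Anchor use rose with fold from the second quintile on. In anchors of GZ-only loops the shares of members were 15.6%, 14.1%, 18.9%, 21.5% and 25.6% from the lowest to the highest quintile. In anchors of shared loops they were 12.4%, 12.4%, 16.5%, 17.1% and 21.3%. Shared peaks rose more steeply in anchors of shared loops, to 46.0% in the highest quintile, and the difference there was -24.7 points (-28.6 to -20.3). In the lowest quintile it was -3.05 points (-4.95 to -1.22).

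**Figure D3:**
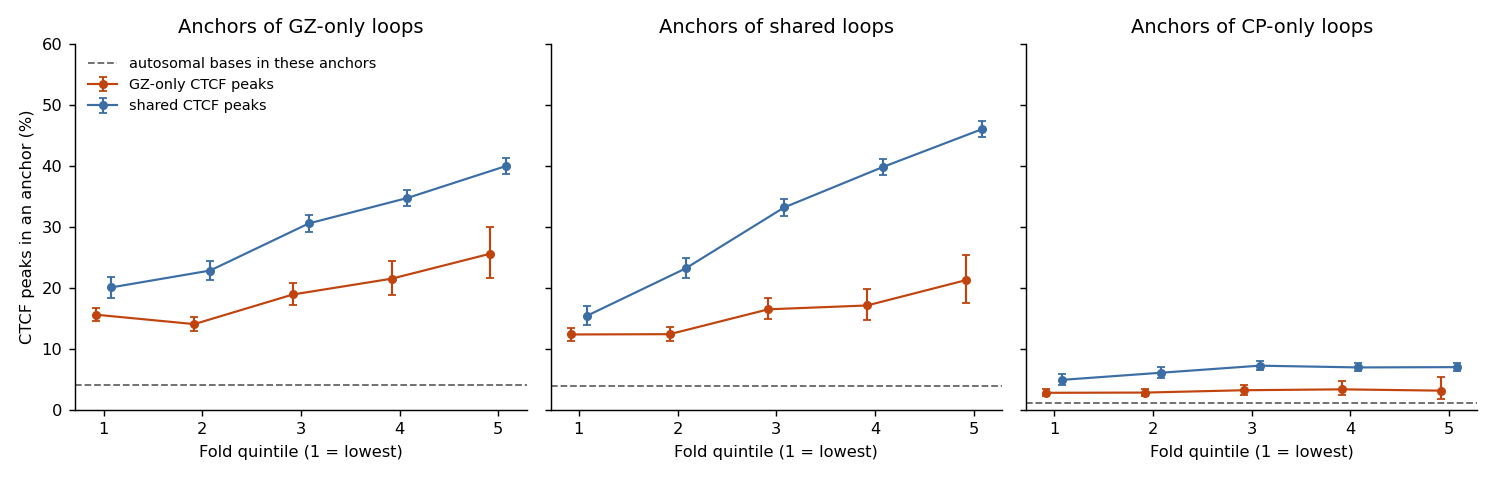
Percent of GZ-only and shared CTCF peaks inside anchors of GZ-only, shared and CP-only loops, by quintile of fold, with 95% Wilson intervals. The dashed line is the percent of autosomal bases in those anchors (4.14%, 3.94% and 1.09%), and members lie between it and the shared peaks in every quintile.

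Among peaks in an anchor of any GZ loop, members were more often tied to GZ-only loops alone than shared peaks were. This held for 1130 of 2560 such members (44.1%, 42.2% to 46.1%) and for 3087 of 10015 such shared peaks (30.8%, 29.9% to 31.7%). The share among members was nearly level over the quintiles, between 41.9% and 46.4%. Among shared peaks it was lower at higher fold, with 46.9% in the lowest quintile and 27.6% in the highest. In the lowest quintile members (45.5%, 42.3% to 48.8%) and shared peaks (46.9%, 43.0% to 50.9%) had overlapping intervals. The share in GZ-only loops alone was not computed for CP-only CTCF peaks. Their shares in anchors of GZ-only and shared loops were 16.1% and 13.7%, against 16.6% and 13.8% of members. By these anchor shares the balance between the kinds of loop was not particular to members.

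Most members at anchors had no shared peak in the same anchor. Of the 1712 members in anchors of GZ-only loops, 1160 (67.8%) lay in at least 1 such anchor without a shared CTCF peak, and of the 1430 in anchors of shared loops 887 (62.0%) did. This is not particular to anchors, since 24.7% of all members had a shared peak within 10 kb and the others had none that near. That distance is counted on either side of the peak, while an anchor is a fixed 10 kb bin. Seen from the loops, a GZ-only CTCF peak without a shared peak was found at 9.85% of the 11065 anchors of GZ-only loops (9.31% to 10.4%). For shared loops this was 8.03% of 10538 anchors (7.52% to 8.56%), and for CP-only loops 6.27% of 2919 anchors (5.45% to 7.21%). A shared peak was present at 49.97%, 57.1% and 39.4% of these anchors. The anchors open to a member without a shared peak thus differed in number between the kinds of loop, which also bears on the counts of loops below. Without a shared peak, 1090, 846 and 183 anchors held a member and 4446, 3678 and 1586 held no GZ CTCF peak. Among these anchors GZ-only and shared loops were closer in their share with a member, and CP-only loops remained lower. With or without a shared peak, a GZ-only peak was at 14.4%, 12.9% and 9.90% of the anchors of GZ-only, shared and CP-only loops.

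Of the 7243 GZ-only loops, 1322 (18.3%, 17.4% to 19.2%) had an anchor where a member was the sole kind of GZ CTCF peak. This held for 1015 of 7389 shared loops (13.7%, 13.0% to 14.5%) and 205 of 1750 CP-only loops (11.7%, 10.3% to 13.3%). These classes leave out CP-only CTCF peaks, of which 16.1%, 13.7% and 6.48% lay in anchors of GZ-only, shared and CP-only loops. The usual partner was a shared peak at the other anchor, in 842 of the 1322 GZ-only loops, and 59 had a member alone at both anchors. Among GZ-only loops of up to 2 Mb, loops with such an anchor had a median observed over expected contact ratio of 2.62. It was 2.72 for loops with shared peaks at both anchors and 2.47 for loops with no GZ CTCF peak at either. Among shared loops of up to 2 Mb these ratios were 3.39, 3.64 and 3.72. The order of these classes was not the same in GZ-only and shared loops. The loop lists also held very long pairs, as 23.2% of GZ-only loops had no GZ CTCF peak at either anchor and a median span of 15420 kb.

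Open and looped members were compared next. Members open in both DNase lists lay in anchors of GZ-only loops in 22.5% of cases (20.97% to 24.2%), those open in GZ alone in 17.2% (15.6% to 18.9%), those open in CP alone in 16.3% (13.4% to 19.5%) and those open in neither in 13.4% (12.5% to 14.4%). In anchors of shared loops the order was alike, with 19.6%, 13.9%, 13.3% and 11.0%. Members open in GZ alone had the highest median fold (10.8, against 8.77 for both, 7.72 for CP alone and 8.22 for neither) but not the highest anchor use.

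Of the 10327 members, 341 were open in GZ alone and lay in an anchor of a GZ-only loop. They were 17.2% (15.6% to 18.9%) of the members open in GZ alone, near the 16.6% of all members in such anchors. The combination was thus about as frequent as anchor use among members at large. Of the 341, 236 lay in no anchor of a shared loop, and 275 lay in an anchor of a GZ-only loop without a shared CTCF peak. The 5 with the highest fold ran from 32.5 to 45.0. The highest, chr13:108202471-108202901, anchored a loop of 160 kb with 216 contacts observed and 91.5 expected. The peak chr10:67677832-67678275 (fold 37.3) anchored a loop of 450 kb with 113 observed and 56.9 expected contacts, and its DNase peak stood at percentile 88.9 of the GZ list. The peak chr7:97937058-97937625 (fold 33.3) lay in an anchor of 2 GZ-only loops. Of these 5, chr2:30002753-30003147 (fold 33.0) also lay in an anchor of a shared loop, and its GZ-only loop had the highest ratio, 47 contacts over 11.9 expected. The last, chr6:6422031-6422385 (fold 32.5), anchored a loop of 1050 kb.

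The 10 members with the highest fold, from 47.3 to 68.3, all overlapped a GZ DNase peak, and 4 overlapped a CP DNase peak. Loop use among them was mixed, with 3 in anchors of GZ-only loops, 4 in anchors of shared loops and 5 in none. The highest of all, chr10:33151869-33152235 (fold 68.3), was open in both tissues, at percentile 90.7 of the GZ DNase list. It anchored a GZ-only loop of 260 kb with 95 contacts observed and 48.3 expected, and the nearest shared CTCF peak was 45.5 kb away. The second, chr9:91691289-91691691 (fold 53.6), was open in GZ alone, at percentile 22.3, in no loop anchor and 144.0 kb from a shared peak. These 2 peaks show how different the settings of strong members were.

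The peaks chr2:123134090-123134461 (51.4), chr14:103365366-103365699 (51.3) and chr4:95900040-95900509 (48.9) were open in both tissues and lay in anchors of shared loops. Those on chr14 and chr4 also lay in anchors of GZ-only loops, and the one on chr4 in an anchor of a CP-only loop as well. The peaks chr1:12113624-12114010 (50.5), chr7:85498383-85498786 (50.1), chr7:130980543-130980917 (47.4) and chr7:84732346-84732773 (47.3) were open in GZ alone and in no loop anchor. The peak chr16:28130968-28131343 (50.1) was open in GZ alone, in an anchor of a shared loop, and 28.7 kb from a GZ boundary, while the nearest CP boundary was 251 kb away.

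Domain boundaries were given as 40 kb bins. Members lay near them less often than shared peaks, with little dependence on fold or tissue. Within 40 kb of a GZ boundary there were 17.1% of members (16.3% to 17.8%), 23.5% of shared peaks and 21.3% of all autosomal GZ peaks. For CP boundaries the shares were 15.9% (15.2% to 16.6%), 22.0% and 19.9%. These windows covered 11.8% of the autosomal bases in GZ and 10.9% in CP. The median distance to a GZ boundary was 198 kb for members and 142 kb for shared peaks. In each quintile of fold between 16.4% and 17.9% of members were within 40 kb of a GZ boundary.

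Members were inside boundaries of all 3 kinds at like shares. Of 503 GZ boundaries with no CP boundary within 40 kb, 18.9% (15.7% to 22.5%) contained a GZ-only CTCF peak, against 20.4% (18.8% to 22.1%) of 2201 shared boundaries and 20.8% (16.5% to 25.9%) of 284 CP-only boundaries. A GZ-only peak without a shared peak was inside 11.1%, 10.2% and 10.9% of them. These intervals overlap throughout. Shared CTCF peaks were inside 35.6% of GZ-only, 44.4% of shared and 35.2% of CP-only boundaries. There were 327 members within 40 kb of a GZ-only boundary (3.17% of members, against 3.47% of shared peaks). The 3 with the highest fold were chr16:28130968-28131343, named above, chr15:25303144-25303594 (31.2) and chr14:103279603-103280013 (30.2), which lay inside the boundary bin.

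Members lay farther from shared CTCF peaks than shared peaks lay from each other. The distance to the nearest shared peak had a median of 34.3 kb (95% interval 33.3 to 35.5 kb) for members and 23.8 kb (23.1 to 24.4 kb) for shared peaks. Within 10 kb of a shared peak there were 24.7% of members and 30.2% of shared peaks. Very close pairs were about as frequent, since 2.83% (2.52% to 3.17%) of members and 3.02% (2.79% to 3.27%) of shared peaks had a shared peak within 500 bp. By fold, members of the lowest quintile were nearest, with a median of 29.1 kb, and the other quintiles had medians of 38.0, 37.5, 37.6 and 35.4 kb. Members open in GZ alone were the most distant group by DNase state, with a median of 46327 bp. Another member was within 10 kb of 14.8% of members.

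**Figure D4:**
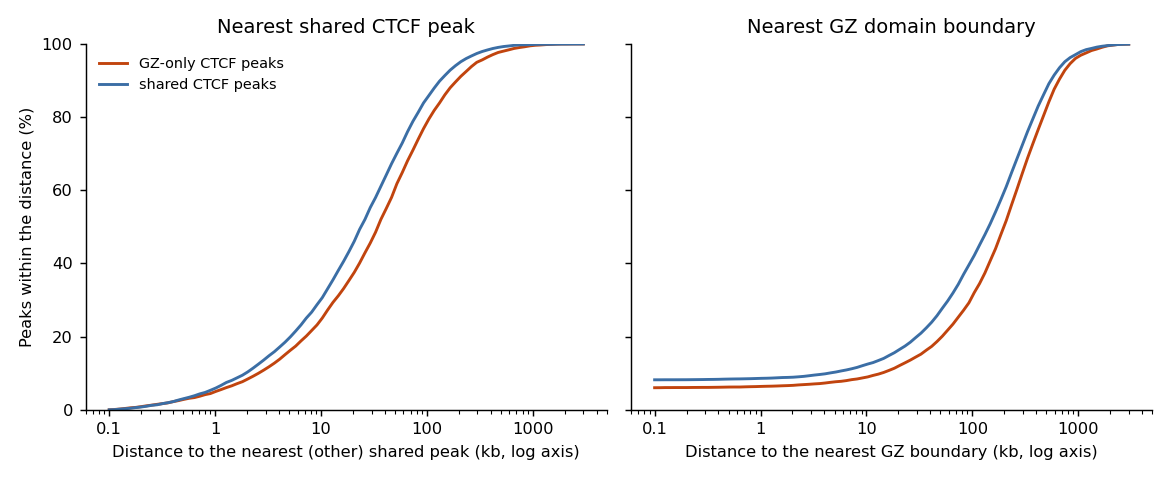
Percent of GZ-only and shared CTCF peaks within a given distance (kb, log axis) of the nearest other shared peak (left) and of the nearest GZ domain boundary (right). The curve of the members lies below that of the shared peaks at most distances, with medians of 34.3 kb and 23.8 kb on the left and 198 kb and 142 kb on the right.

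The share of GZ-only peaks differed between chromosomes. It was 41.6% (39.0% to 44.2%) on chromosome 5, the highest of the autosomes, and 29.3% (26.9% to 31.8%) on chromosome 19, the lowest. Chromosome 5 had 22.6 GZ DNase peaks per Mb and chromosome 19 had 45.7. Over the 20 autosomes the share was lower where DNase peaks were denser, with Pearson's r of -0.89 and Spearman's rho of -0.90. This is a description of chromosomes that share both libraries. Members themselves were denser on chromosome 19, with 7.44 per Mb against 2.99 on chromosome 5, but shared peaks differed more, with 18.0 and 4.201 per Mb. Near the peaks another count was taken, of GZ DNase peaks that overlapped no GZ CTCF peak. A median of 25 of them lay within 500 kb of members and 26 within 500 kb of shared peaks.

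**Figure D5:**
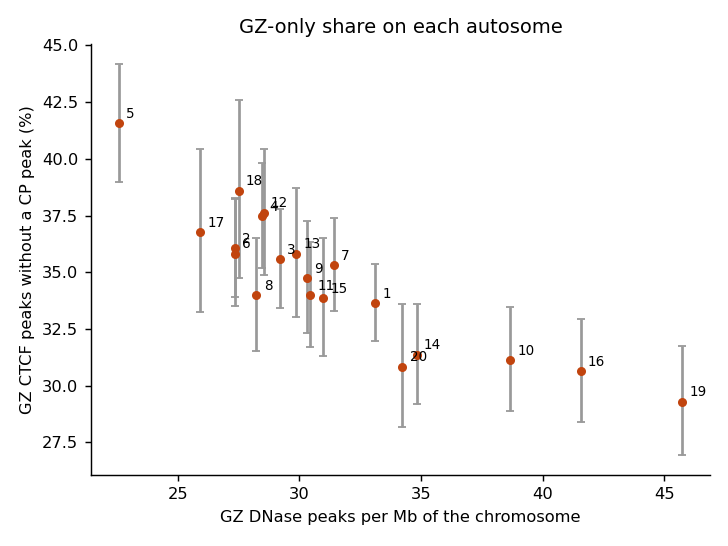
Percent of GZ CTCF peaks without a CP peak on each of the 20 autosomes (number beside the point), against GZ DNase peaks per Mb. Bars are 95% Wilson intervals, and the share runs from 29.3% on chromosome 19 to 41.6% on chromosome 5.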

How the data were processed

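The lists of CTCF peaks, DNase peaks, loops and boundaries are the authors' own, on rheMac8 per the submitters' processing notes, which name MACS2, HOMER and HiC-Pro without versions or roles. The authors' CTCF peaks have a fold (a ratio over background) and, in separate deposited columns, −log10 values of p and q. Their names contain the word merge, so they may rest on merged runs. DNase peaks carry a normalized tag signal, a fold over local background and a score, per the file headers. Loops carry observed contact counts and an expected signal, per the file headers. Boundary strengths are deposited scores. RNA values were not used here, and neither was a genome of that build, so motifs, sequences and genes were not analysed and the planned motif search was not run.

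The peaks, bins and measures were chosen with earlier results of these data known. Named peaks are the 10 members with the highest fold, the 5 highest open in GZ alone in an anchor of a GZ-only loop, the 3 highest within 40 kb of a GZ-only boundary, and the 3 on each side of the overlap rule. Overlaps were counted in Python 3.11.15 with numpy 2.4.6, pandas 2.3.3 and scipy 1.17.1, and tested on simulated lists with known overlap. Chromosome lengths were taken as the largest coordinate in any list. Printed coordinates are 1-based. No test between tissues was possible with single lists, and differences of shares have Newcombe intervals. Alternatives were other overlap rules, a stricter q, lists of equal length, other loop and boundary rules and other bins.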

Additional observations from a re-analysis of the deposited data

How the results depend on the processing

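The number of members, their shares, their median distance to a shared peak, the rises with fold and the differences from shared peaks at matched bins were computed again under the alternatives that apply to each. Loop classes, members in GZ-only loops alone, contents of anchors and boundaries, DNase ranks and shares by chromosome were not. Counting a GZ peak as shared only when CP peaks covered 50% of it moved the shares of members open in GZ and CP to 45.7% and 32.2%. Asking for no CP peak within 500 bp moved the median distance to a shared peak to 35.8 kb. With the GZ CTCF list shortened to the length of the CP list, 4349 members were left in place of 10327, with 55.8% open in GZ, 35.8% open in CP, 19.4% in anchors of GZ-only loops, 15.2% in anchors of shared loops and a median distance of 37.1 kb. A DNase peak within 500 bp gave 52.3% open in GZ and 38.2% in CP, the summit rule 34.4% and 21.4%, and a shortened GZ DNase list 39.0% in GZ. Loops shared in the same bins gave 19.2%, 10.95% and 7.07% of members in anchors of GZ-only, shared and CP-only loops, loops of up to 2 Mb gave 15.2%, 13.0% and 2.56%, and anchors widened by 10 kb gave 27.9%, 24.4% and 6.18%. Inside the boundary bin itself there were 6.02% of members for GZ and 5.52% for CP. The rise from the lowest to the highest fold group was 38.9 points for GZ DNase, 9.42 for CP DNase, 10.0 for GZ-only and 8.90 for shared loop anchors. With quartile groups of the members' own fold it was 19.1, -4.30, 3.45 and 4.60 points, so the CP DNase rise reversed. Quintiles of −log10 q, chosen after seeing the data, gave a rise of 21.7 points for CP DNase and 16.1 points for GZ-only loop anchors, and 5.14 points for shared loop anchors with an interval of -1.74 to 14.8. The differences from shared peaks at matched −log10 q were -23.5 points for GZ DNase, -34.7 for CP DNase and -11.9 for shared loop anchors, against -26.5, -39.4 and -10.5 at matched fold. The cause of these shifts was not tested. Of 71 recomputed values, 34 shares, distances and differences stayed within the 95% interval of the first value, and 3 numbers of members (10788, 10030 and 10161) within 1.5 times of it. Another 33 values moved beyond these limits, and 1, the CP DNase rise with quartile groups, changed sign.

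No paired analysis was possible because each tissue had a single CTCF and DNase library and a single list of loops and boundaries, and leaving out a library was not possible for the same reason. The unknown read depth limits what the absence of a CP peak can show.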

Other observations

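The sex chromosomes lay outside the definition of the members. On X, 436 of 932 GZ peaks (46.8%, 95% Wilson interval 43.6% to 49.99%) had no CP peak, and 63 of 562 CP peaks (11.2%, 8.86% to 14.1%) had no GZ peak. The share without a CP peak on X was above the 41.6% (39.0% to 44.2%) of chromosome 5, the autosome with the highest share. The intervals overlap, and the difference was not tested. On Y there were 13 GZ and 6 CP peaks, of which 9 and 2 had no counterpart.

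A group of 566 autosomal members was open in CP alone although the CTCF peak was called in GZ. Of these 5.30% (3.74% to 7.47%) lay in anchors of CP-only loops, against 2.32% (1.74% to 3.07%) of members open in GZ alone, 2.31% (1.93% to 2.75%) of members open in neither list and 4.15% (3.45% to 4.99%) of members open in both. The share is close to the 5.39% of all autosomal GZ peaks, and its interval overlaps that of members open in both lists. The group had a median fold of 7.72.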
